A study of Mus musculus with 6 samples.

Results

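The genes that carry the LIF and OSM signal from the cell surface to the nucleus were followed in mESCs. They comprise 4 receptor subunits (Il6st, Lifr, Osmr and Il6ra), 3 Janus kinases (Jak1, Jak2 and Tyk2), the transcription factor gene Stat3 and the phosphatase gene Ptpn11, and they were chosen by name as known components of this pathway, 9 of the 28584 gene symbols measured. All 9 passed the filter on low values that left 18556 genes for testing. RNA of mESCs was sequenced in 3 groups, with 2 biological replicates in each, after 10 passages (P10) in the medium of the group. The cells came from 1 ES line derived from C57BL/6 × 129S6 blastocysts. All had first been grown on MEF feeder cells inactivated with mitomycin C, in medium with serum and LIF. They were then moved into serum-containing ESC basic medium, which all 3 groups shared. Whether feeder cells stayed in use after that move is not stated in the study's methods. -LIF-ESCs received basic medium alone, LIF-ESCs received 1000 U/mL LIF, and OSM-ESCs received OSM in place of LIF. All replicates of a group thus share 1 cell line, so p-values measure the spread between these cultures and not between lines.

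LIF and OSM belong to the IL-6 family of cytokines, whose receptors share gp130, the product of Il6st. LIF binds LIFR and joins it to gp130, whereas mouse OSM acts mainly through OSMR paired with gp130. The authors describe OSM bound to gp130 as able to recruit LIFR or OSMR. IL-6 needs IL6RA before it can engage gp130. JAK1, JAK2 and TYK2 sit on the intracellular part of these receptors and phosphorylate STAT3, which enters the nucleus and helps to keep mESCs undifferentiated. SHP2, the product of Ptpn11, binds the phosphorylated receptor and links it to the RAS-ERK cascade. RNA levels were measured here, and the phosphorylation that carries the signal is not visible in them.

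Levels are given in TPM, a unit that corrects read counts for gene length and brings all libraries to 1 common total. Reads recovered from these values came to between 20712930 and 28994420 per library. Differences were tested with limma on log2(TPM + 1) over all 18556 genes with Benjamini-Hochberg adjustment, and a gene is said to have passed at an adjusted p under 0.05. Log2 fold changes printed below are of TPM + 1 unless voom is named. For genes at a few TPM or less they are smaller than the log2 fold change of mean TPM. With 2 libraries a group, the smallest two-sided p of an exact permutation test is 0.333, and all p-values printed therefore come from limma's model. The cultures differed in cell state. Against -LIF-ESCs, 8 of 10 pluripotency markers were higher and 2, Nanog and Dppa3, lower in both LIF-ESCs and OSM-ESCs. Nanog was at 436 and 431 TPM in -LIF-ESCs, 289 and 291 TPM in LIF-ESCs and 270 and 252 TPM in OSM-ESCs. The authors name Nanog among the pluripotency genes that were higher with either cytokine. All 8 trophectoderm and simple epithelium markers tested were lower in both. Their summed level was 2361 to 2383 TPM in -LIF-ESCs against 60.6 to 77.0 TPM in the other libraries. All 8 primitive endoderm markers were higher in LIF-ESCs and 6 in OSM-ESCs, while 4 of 6 mesoderm markers were lower and 1 higher in both, and of 3 macrophage markers 1 was higher and 1 lower in both. Of all genes tested, 42.2% passed as higher and 25.9% as lower with LIF, and 42.9% and 25.4% with OSM. The macrophage counts are near these shares. In bulk RNA, fewer cells of a type and less RNA per cell cannot be told apart, which holds for every level below.

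Before the levels, the promoters of Stat3 and of the 3 receptor subunit genes that rose with either cytokine are shown as examples of the 9. Each line holds the 250 bases before the RefSeq start of transcription (GRCm38.p6), 5′ to 3′ on the strand of the gene. Osmr lies at chr15:6874314-6874563 (minus strand), Lifr at chr15:7129322-7129571 (plus strand, the first of 2 RefSeq starts), Il6st at chr13:112463820-112464069 (plus strand) and Stat3 at chr11:100939541-100939790 (minus strand). Capitals mark GGGCGG, the GC box bound by Sp1-type factors, and CCAAT, on either strand, so that CCGCCC and ATTGG are their reverse complements.
Osmr: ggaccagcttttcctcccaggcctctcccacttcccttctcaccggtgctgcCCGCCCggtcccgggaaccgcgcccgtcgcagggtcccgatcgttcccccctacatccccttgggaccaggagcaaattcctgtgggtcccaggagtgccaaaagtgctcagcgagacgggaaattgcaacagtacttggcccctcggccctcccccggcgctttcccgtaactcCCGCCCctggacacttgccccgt
Lifr: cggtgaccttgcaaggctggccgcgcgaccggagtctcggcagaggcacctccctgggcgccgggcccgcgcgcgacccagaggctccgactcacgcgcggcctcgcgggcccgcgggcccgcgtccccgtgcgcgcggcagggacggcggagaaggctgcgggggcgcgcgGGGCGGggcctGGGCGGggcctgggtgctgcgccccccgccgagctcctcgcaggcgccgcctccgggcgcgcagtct
Il6st: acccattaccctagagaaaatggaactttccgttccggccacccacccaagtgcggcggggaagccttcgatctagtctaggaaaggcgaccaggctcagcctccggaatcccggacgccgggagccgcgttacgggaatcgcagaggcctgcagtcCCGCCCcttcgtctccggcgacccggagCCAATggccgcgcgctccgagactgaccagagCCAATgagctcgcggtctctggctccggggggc
Stat3: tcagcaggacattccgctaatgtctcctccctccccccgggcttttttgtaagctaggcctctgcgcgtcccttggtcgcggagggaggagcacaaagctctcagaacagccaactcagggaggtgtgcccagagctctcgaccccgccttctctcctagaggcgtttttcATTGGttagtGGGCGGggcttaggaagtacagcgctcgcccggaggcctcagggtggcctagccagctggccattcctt

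The motif TTCNNNGAA, which STAT dimers bind, was in none of the 10 windows of the 9 genes on either strand, and in 7.02% of all 32851 promoter windows of this length. GGGCGG was found in 8 of the 9 genes, and in 8 of the 10 windows, against 32.7% of all windows. Il6ra and the second window of Lifr lacked it. In Osmr GGGCGG began at 198 and 23 bases before the start, and in Lifr at 78 and 67 bases before the first start. CCAAT was found in 5 of the 9 genes, and in 5 of the 10 windows, against 33.8% of all windows. In Lifr it was only in the second window, which is not printed above. The windows printed above were rich in G and C, with 82.4% in Lifr, 66% in Osmr and in Il6st and 60.8% in Stat3 against a median of 52.4% over all windows. The second Lifr window had 50.8%. Neither motif was set against windows of like composition. The absence of TTCNNNGAA says only that these letters are not in these windows, and the table does not tell which start of transcription the cells used.

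With either cytokine the receptor subunit genes Il6st, Lifr and Osmr were higher than without one, and of the 9 genes Osmr had the highest fold change. Osmr, which encodes the OSM receptor subunit, lies on the minus strand of chromosome 15 at 6813577-6874969 in GRCm38. It was at 0.131 and 0.151 TPM in -LIF-ESCs, 6.06 and 6.27 TPM in LIF-ESCs and 7.82 and 7.30 TPM in OSM-ESCs. It was thus close to absent from both cytokine-free libraries, with 18 and 17 reads, against 689 and 685 reads in LIF-ESCs and 957 and 1073 reads in OSM-ESCs, and no library of one group overlapped with another group. Against -LIF-ESCs the mean TPM was 43.7-fold higher with LIF and 53.6-fold higher with OSM. Because log2(TPM + 1) compresses the change of a gene this low, the fitted differences were 2.65 ± 0.09 (SE, adjusted p = 1.58e-05) and 2.91 ± 0.09 (adjusted p = 1.14e-05). Limma's voom on the recovered reads, which was added once the data had been seen, gave log2 fold changes of 5.29 and 5.58. Of all genes tested, 1.28% rose as much as Osmr or more in LIF-ESCs and 1.08% in OSM-ESCs.

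Lifr, which encodes the LIF receptor subunit, lies on the plus strand of the same chromosome at 7090614-7197489. From Osmr it is separated by 215644 bases, with 0 genes of the table wholly between them. It was at 5.23 and 5.44 TPM in -LIF-ESCs, 15.6 and 14.3 TPM in LIF-ESCs and 14.5 and 13.1 TPM in OSM-ESCs. Both cytokine cultures were above the cytokine-free one in every library, and the LIF-ESC and OSM-ESC libraries overlapped. Over -LIF-ESCs Lifr rose by 1.33 ± 0.08 (SE) with LIF and 1.22 ± 0.08 with OSM on the log2 scale, with adjusted p = 7.09e-05 and 9.18e-05 in limma. In the cytokine-free culture Lifr RNA was thus still present, at 5.34 ± 0.15 TPM (SD, n = 2), beside 0.141 ± 0.014 TPM (SD, n = 2) for Osmr.

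Il6st, which encodes the shared subunit gp130, lies on chromosome 13 at 112464070-112510086 (plus strand) and was the most abundant of the 4 subunits in every library. Its level was 16.1 and 16.6 TPM in -LIF-ESCs, 27.5 and 26.6 TPM in LIF-ESCs and 28.7 and 28.2 TPM in OSM-ESCs. It rose 1.65-fold with LIF and 1.74-fold with OSM in mean TPM, a log2 fold change of 0.69 ± 0.05 (SE, adjusted p = 1.18e-04) and 0.76 ± 0.05 (adjusted p = 8.30e-05). Il6ra, the IL-6-specific subunit on chromosome 3 at 89864059-89913196 (minus strand), stayed near 1 TPM throughout. It was at 0.807 and 0.982 TPM in -LIF-ESCs, 0.900 and 1.01 TPM in LIF-ESCs and 1.33 and 1.03 TPM in OSM-ESCs, from 73 to 116 reads per library. Its log2 fold change was 0.05 with LIF, with a 95% interval of -0.33 to 0.42 (adjusted p = 0.794), and 0.20 with OSM, with an interval of -0.17 to 0.57 (adjusted p = 0.279). A change of Il6ra was not detected with 2 libraries a group at this low level, where log2(TPM + 1) compresses differences. In mean TPM it was 1.07-fold with LIF and 1.32-fold with OSM. Its log2 fold change with LIF turned to -0.05 when the libraries were rescaled by their median ratio. Of the Il6ra exons, 2.80% overlap on the opposite strand with Gm42809, at 0.310 and 0.283 TPM in -LIF-ESCs and 0.749 to 1.22 TPM with a cytokine.

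**Figure D1:**
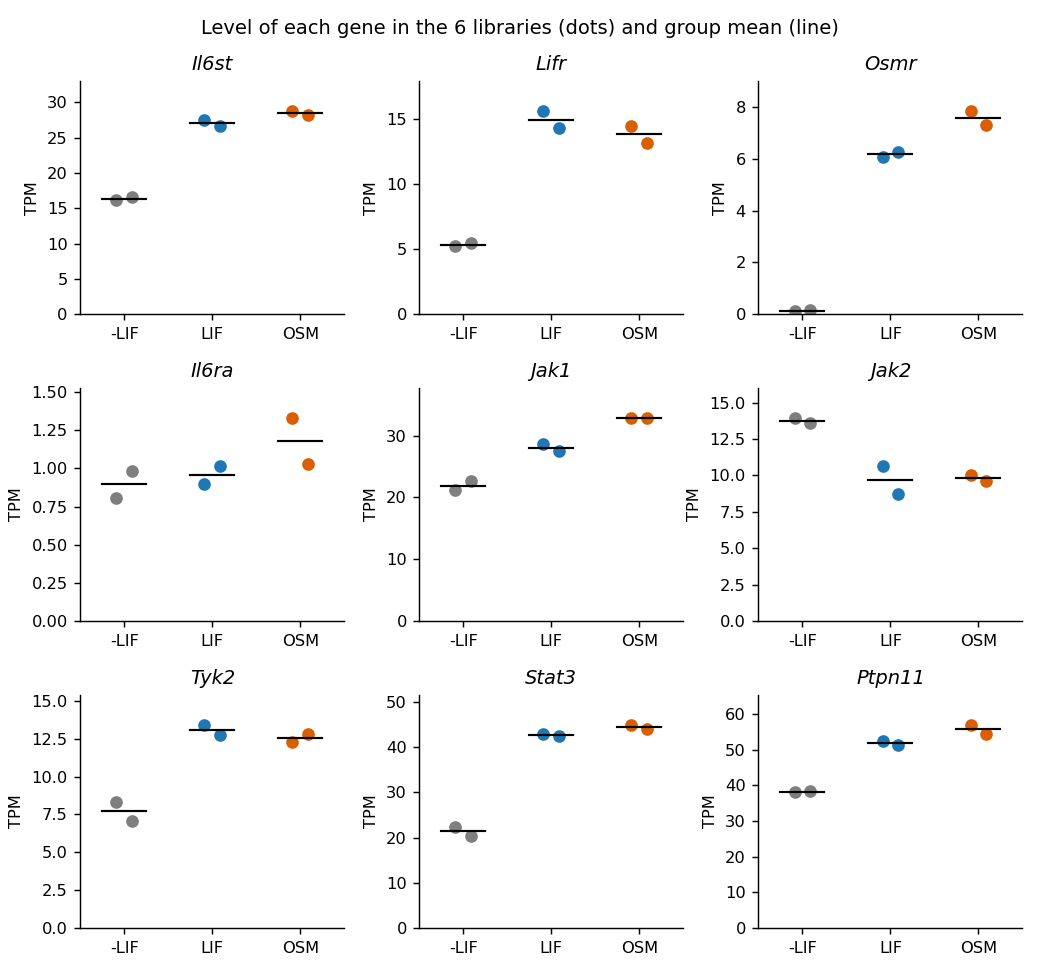
Level of each gene in TPM (vertical axis, from 0) in the -LIF-ESC, LIF-ESC and OSM-ESC libraries; dots are the 2 libraries of a group and lines their mean. Osmr lies at 0.131 and 0.151 TPM in -LIF-ESCs and between 6.06 and 7.82 TPM in the other 4 libraries, and Jak2 is the gene whose -LIF-ESC libraries are the highest.

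Since TPM is per length, the subunits can be set beside each other. Without a cytokine the ratio of Osmr to Lifr TPM was 0.0264 ± 0.0018 (SD, n = 2), against 0.414 ± 0.034 with LIF and 0.548 ± 0.011 with OSM. The libraries of the 3 groups did not overlap, at 0.0251 and 0.0277, at 0.390 and 0.438, and at 0.541 and 0.556. The ratio of Il6st to Lifr was 3.07 ± 0.02 without a cytokine, 1.81 ± 0.06 with LIF and 2.07 ± 0.11 with OSM, so gp130 transcripts exceeded those of LIFR in all libraries. Il6st exceeded Osmr by a ratio of 117 ± 8.9 without a cytokine, 4.39 ± 0.21 with LIF and 3.77 ± 0.13 with OSM. Of the summed TPM of the 4 subunits, which was 22.8 without a cytokine, 49.1 with LIF and 51.0 with OSM, Osmr made up 0.619%, 12.6% and 14.8%. Lifr made up 23.5%, 30.4% and 27.1%, and Il6st 72.0%, 55.1% and 55.8%. These ratios are descriptions and were not tested.

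The 3 Janus kinases did not move together. Jak1 and Tyk2 were higher in both cytokine cultures than in -LIF-ESCs, and Jak2 was lower. Jak1, the kinase on which gp130 signaling mainly depends, lies on chromosome 4 at 101152367-101265282 (minus strand) and was at 21.2 and 22.6 TPM in -LIF-ESCs, 28.6 and 27.4 TPM in LIF-ESCs and 32.8 TPM in both OSM-ESC libraries. The log2 fold change was 0.34 ± 0.05 (SE, adjusted p = 0.00234) with LIF and 0.56 ± 0.05 (adjusted p = 3.48e-04) with OSM, and the 3 groups did not overlap. Tyk2, on chromosome 9 at 21104068-21131243 (minus strand), was at 8.34 and 7.09 TPM in -LIF-ESCs, 13.4 and 12.8 TPM in LIF-ESCs and 12.3 and 12.8 TPM in OSM-ESCs. It rose by 0.70 ± 0.09 (SE, adjusted p = 0.00113) with LIF and 0.64 ± 0.09 (adjusted p = 0.00157) with OSM on the log2 scale. Of the Tyk2 exons, 8.07% overlap on the opposite strand with 1700084C06Rik, which was itself higher in the cytokine cultures, at 54.0 to 62.7 TPM against 33.7 and 37.8 TPM. Whether reads were counted by strand is not given in the sources used here, so reads of this stretch cannot be told apart.

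Jak2, on chromosome 19 at 29251828-29313080 (plus strand), was at 13.9 and 13.6 TPM in -LIF-ESCs, 10.6 and 8.75 TPM in LIF-ESCs and 10.0 and 9.64 TPM in OSM-ESCs. Every library with a cytokine was below both libraries without one. The log2 fold change was -0.47 ± 0.10 (SE, adjusted p = 0.0074) with LIF and -0.45 ± 0.10 (adjusted p = 0.00908) with OSM in limma. The second of these missed the threshold when -LIF-ESC replicate 1 (adjusted p = 0.0507) or OSM-ESC replicate 2 (adjusted p = 0.0501) was left out, and over all alternatives its adjusted p ran from 4.37e-07 to 0.0507. In the summed TPM of the 4 Janus kinase genes, Jak3 included, Jak2 made up 27.6% ± 0.05 (SD, n = 2) without a cytokine, 16.7% ± 1.4 with LIF and 15.9% ± 0.55 with OSM. Jak1 made up 44.0% ± 2.8, 48.3% ± 1.0 and 53.0% ± 0.44, and Tyk2 15.5% ± 1.5, 22.6% ± 0.39 and 20.3% ± 0.44. Tyk2 was below Jak2 in both -LIF-ESC libraries and above it in all 4 others.

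Stat3 and Ptpn11 RNA were higher with either cytokine. The gene, on chromosome 11 at 100885098-100939540 (minus strand), was at 22.4 and 20.4 TPM in -LIF-ESCs, 43.0 and 42.6 TPM in LIF-ESCs and 44.9 and 44.1 TPM in OSM-ESCs. The mean TPM was 2.00-fold higher with LIF and 2.08-fold higher with OSM. The log2 fold change was 0.97 ± 0.06 (SE, adjusted p = 6.60e-05) with LIF and 1.02 ± 0.06 (adjusted p = 5.36e-05) with OSM, so that the 2-fold threshold of a call fell between them. Ptpn11, on chromosome 5 at 121130533-121191397 (minus strand), was the most abundant of the 9 genes in every library, at 38.1 and 38.3 TPM in -LIF-ESCs, 52.4 and 51.3 TPM in LIF-ESCs and 56.9 and 54.4 TPM in OSM-ESCs. It rose by 0.43 ± 0.04 (SE, adjusted p = 4.01e-04) with LIF and 0.53 ± 0.04 (adjusted p = 1.85e-04) with OSM on the log2 scale.

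The order of the levels changed between the cultures. In -LIF-ESCs it ran from Ptpn11 through Jak1, Stat3, Il6st, Jak2, Tyk2, Lifr and Il6ra to Osmr, with Jak1 and Stat3 overlapping. In LIF-ESCs it ran from Ptpn11 through Stat3, Jak1, Il6st, Lifr, Tyk2, Jak2 and Osmr to Il6ra, with Jak1 and Il6st overlapping. OSM-ESCs had the order of LIF-ESCs, and there no neighbours overlapped. Lifr thus stood below Jak2 and Tyk2 without a cytokine and above both with either one, and the lowest gene was Osmr in -LIF-ESCs and Il6ra in the other groups.

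In each cytokine culture, 7 of the 9 genes (Il6st, Lifr, Osmr, Jak1, Tyk2, Stat3 and Ptpn11) were higher than in -LIF-ESCs, Jak2 was lower, and Il6ra did not pass. These counts stand against a background in which most genes moved. With LIF, 42.2% of the 18556 genes tested passed as higher and 25.9% as lower, and with OSM 42.9% and 25.4%. At an adjusted p under 0.05 with at least a 2-fold difference, 2 of the 9 (Lifr and Osmr) were called higher with LIF, where 13.3% of all genes were, and 3 (Lifr, Osmr and Stat3) with OSM, where 14.2% were. The log2 fold change of Stat3 with OSM fell under the 2-fold line after rescaling by the median ratio (0.82), with voom on the recovered reads (0.92) and without -LIF-ESC replicate 2 (0.96). None of the 9 was called lower by that rule, against 8.09% and 7.86% of all genes. The median log2 fold change of the 9 genes was 0.69 with LIF and 0.64 with OSM, beside 0.17 and 0.18 over all genes tested. After rescaling by the median ratio, which brought the median of all genes to -0.00092 and 0.00066, the same 7 genes passed as higher and Jak2 as lower, where 33.6% and 33.5% of all genes passed as higher and 33.9% and 33.7% as lower. The rescaled log2 fold changes with LIF were 2.58 for Osmr, 1.16 for Lifr, 0.78 for Stat3, 0.52 for Tyk2, 0.50 for Il6st, 0.24 for Ptpn11, 0.15 for Jak1 (adjusted p = 0.045) and -0.65 for Jak2. Both comparisons share the -LIF-ESC libraries and are not independent of each other.

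**Figure D2:**
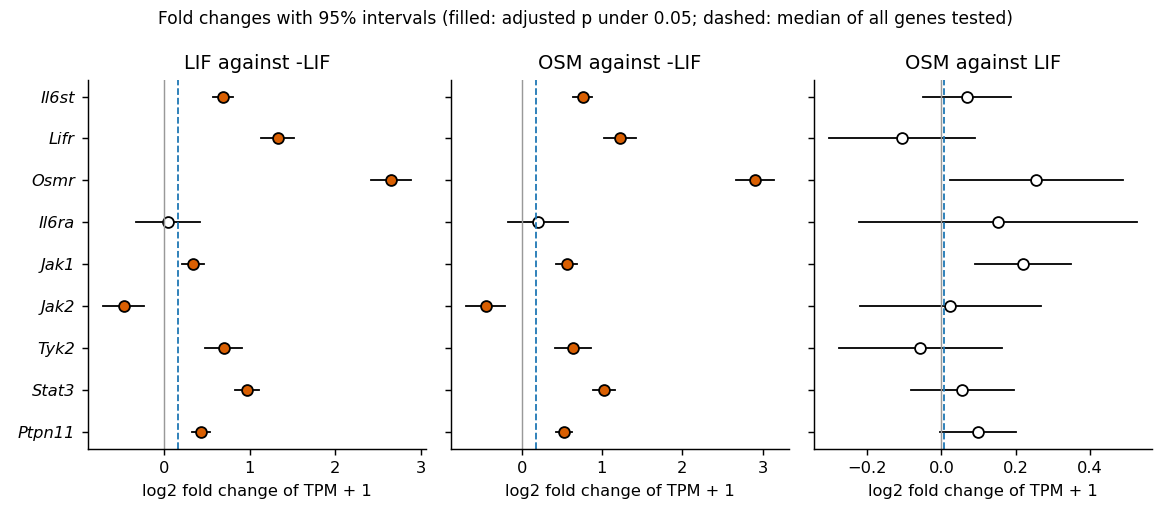
Log2 fold change of TPM + 1 (horizontal axis) of the 9 genes with its 95% interval from limma, for LIF-ESCs against -LIF-ESCs, OSM-ESCs against -LIF-ESCs and OSM-ESCs against LIF-ESCs; filled dots passed at an adjusted p under 0.05 and the dashed line is the median of all genes tested. The first 2 panels each show 7 filled dots above 0 and Jak2 below it, and the third, on a narrower axis, shows 0 filled dots.

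OSM-ESCs and LIF-ESCs were then compared directly, to see whether the 2 cytokines left the receptor and kinase genes at different levels. None of the 9 genes passed, where 0.463% of all genes were higher and 0.129% lower in OSM-ESCs, and none was called at a 2-fold difference, where 0.0323% and 0.0485% were. At an unadjusted p under 0.05 Osmr and Jak1 were higher with OSM, as were 9.8% of all genes, and none of the 9 was lower, against 5.5%. Osmr differed by 0.26 on the log2 scale, with a 95% interval of 0.02 to 0.49 (unadjusted p = 0.0365 and adjusted p = 0.292 in limma). Jak1 differed by 0.22, with an interval of 0.09 to 0.35 (unadjusted p = 0.00689 and adjusted p = 0.16 in limma). In limma's voom on the recovered reads both passed, at an adjusted p of 0.00715 for Osmr and 0.00304 for Jak1. Voom passed 1442 of the 18431 genes tested that way, where limma on log2(TPM + 1) passed 110 genes. The voom passes of Osmr and Jak1 are thus not specific to them. Neither gene passed under any other alternative. Over all alternatives the difference ran from 0.21 to 0.30 for Osmr and from 0.19 to 0.25 for Jak1.

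For the other genes the direct difference between OSM-ESCs and LIF-ESCs was small and its interval spanned 0. It was -0.11 for Lifr, with a 95% interval of -0.30 to 0.09, and 0.07 for Il6st, with an interval of -0.05 to 0.19. Stat3 differed by 0.06, with an interval of -0.08 to 0.20, and Ptpn11 by 0.10, with an interval of -0.0043 to 0.20. For Il6ra, Jak2 and Tyk2 the differences were 0.15, 0.02 and -0.06, with intervals of -0.22 to 0.53, -0.22 to 0.27 and -0.28 to 0.16. These intervals do not show that the cytokines act alike on a gene, but for Stat3 they leave out a difference as large as the one between either culture and -LIF-ESCs. Both OSM-ESC libraries were above both LIF-ESC libraries for 6 of the 9 genes (Osmr, Il6st, Il6ra, Jak1, Stat3 and Ptpn11), which was also the case for 26.3% of all genes, and both were below for 0 of the 9, against 20.9% of all genes.

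**Figure D3:**
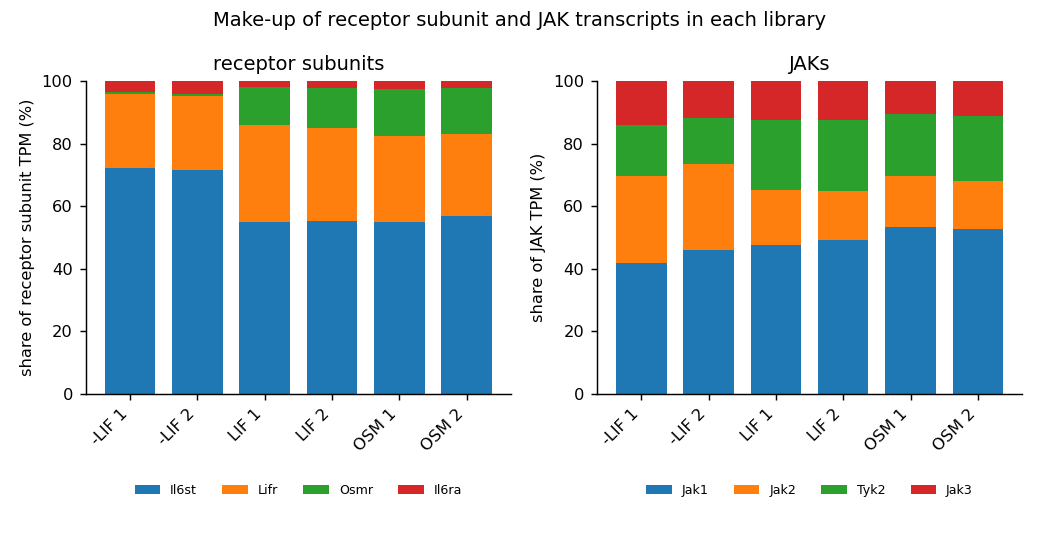
Share of the summed TPM (vertical axis, in percent) of the 4 receptor subunit genes and the 4 Janus kinase genes in each of the 6 libraries. Osmr widens from 0.619% of receptor subunit TPM in -LIF-ESCs to 12.6% and 14.8% with LIF and OSM, and Jak2 narrows from 27.6% to 16.7% and 15.9% of Janus kinase TPM.

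Other genes of the pathway, taken from 5 lists of which 60 genes were tested, moved in both directions. With LIF 32 were higher and 11 lower than in -LIF-ESCs, and with OSM 34 and 11, and after rescaling by the median ratio these counts became 27 and 17, and 30 and 18. The counts of the lists that follow stand beside the same shares of all genes as above. These were 42.2% higher and 25.9% lower with LIF and 42.9% and 25.4% with OSM. After rescaling, the shares were 33.6% and 33.9% with LIF and 33.5% and 33.7% with OSM. Among the ligands of the family, 6 of 7 tested were higher with LIF and 6 with OSM, where 1 was lower. Lif itself was at 7.65 and 7.07 TPM in -LIF-ESCs, 18.4 and 18.5 TPM in LIF-ESCs and 20.4 and 21.1 TPM in OSM-ESCs, and so rose by 1.22 and 1.38 on the log2 scale. Il11, whose product also signals through gp130, rose by 1.16 and 1.66 on the log2 scale, and 3.38-fold and 5.20-fold in mean TPM. Il6 had 0 reads in both -LIF-ESC libraries against 214 reads over the LIF-ESC and 327 over the OSM-ESC libraries, which is at least 79.6-fold and 103-fold higher than the 3 reads that a count of 0 allows over the group. Il6ra, the receptor subunit that its product needs, was near 1 TPM in all 6 libraries. Osm did not reach the filter, at 0.622 to 1.05 TPM over the 6 libraries.

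Among 12 other cytokine receptor subunits tested, 6 were higher with LIF and 8 with OSM, and 0 were lower, but after rescaling these counts were 3 higher and 2 lower, and 6 and 2. Il4ra, the IL-4 receptor subunit, was at 1.12 and 0.913 TPM in -LIF-ESCs, 6.32 and 6.19 TPM in LIF-ESCs and 6.84 and 7.34 TPM in OSM-ESCs. Il2rg, the shared chain of the IL-2 receptor family, rose by 1.21 with LIF and 1.23 with OSM on the log2 scale. In mean TPM it was 4.02-fold and 4.09-fold higher. Ifngr2, an interferon gamma receptor chain, rose by 0.68 and 1.02 on the log2 scale. Ifngr1, its partner chain, rose by 0.29 with LIF (adjusted p = 0.0104), a call lost after rescaling (adjusted p = 0.18), and Ifnar2, a type I interferon receptor chain, by 0.50 with OSM (adjusted p = 0.00526).

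Of the 7 other Janus kinase and STAT genes, 4 were higher and 2 lower with either cytokine, and Jak3 was the one that did not pass. Stat4 and Stat2 were among the higher ones, by 1.12 and 0.44 with LIF and 1.06 and 0.63 with OSM. Stat5b, a STAT that serves growth hormone and prolactin receptors, fell by 0.51 with LIF and by 0.67 with OSM. Of the summed TPM of the 7 STAT genes, which rose from 90.9 to 171 and 200, Stat3 made up 23.6% ± 1.3 (SD, n = 2) without a cytokine, 25.1% ± 0.34 with LIF and 22.3% ± 0.19 with OSM.

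Among 18 inhibitors of the pathway tested, 8 were higher and 5 lower with LIF, and 8 and 4 with OSM. These counts are close to the shares over all genes (42.2% and 25.9% with LIF, 42.9% and 25.4% with OSM). After rescaling they were 7 and 7 with LIF and 7 and 8 with OSM. The rescaled shares over all genes were 33.6% and 33.9%, and 33.5% and 33.7%. Socs3, the SOCS protein that binds gp130 and blocks its kinases, was at 37.2 and 39.3 TPM in -LIF-ESCs, 78.9 and 77.2 TPM in LIF-ESCs and 54.1 and 50.6 TPM in OSM-ESCs. Between the cytokine cultures it was lower with OSM, by 0.57 on the log2 scale (adjusted p = 0.03 in limma), beside a difference of 0.06 for Stat3. Socs2 was higher by 1.63 with LIF and 1.59 with OSM and Socs5 by 1.46 and 1.57, and Pias2, of a family named as inhibitors of activated STATs, by 1.03 and 0.95. Socs1, another SOCS inhibitor of Janus kinases, went the other way, from 12.7 and 12.3 TPM in -LIF-ESCs to 2.42 and 2.25 TPM with LIF and 2.89 and 3.15 TPM with OSM. Of the 60 pathway genes, 1 passed as higher and 1, Socs3, as lower in OSM-ESCs when set against LIF-ESCs. Of all genes tested, 0.463% were higher and 0.129% lower. When any 1 of the 6 libraries was left out, Socs3 kept a difference of -0.62 to -0.52 while 0 or 1 of all genes tested passed, so those fits could hardly make a call. Fitting the 2 groups alone, 0 of all genes passed. With voom on the recovered reads 6 of the 60 did, where 1442 of all 18431 genes tested with voom passed.

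Downstream of SHP2, 8 of 16 adaptors and kinases on the way to ERK were higher and 4 lower with either cytokine. These counts were again close to the shares over all genes (42.2% and 25.9% with LIF, 42.9% and 25.4% with OSM). After rescaling they were 7 and 6 with LIF and 7 and 5 with OSM. The rescaled shares over all genes were 33.6% and 33.9%, and 33.5% and 33.7%. Nras was higher by 0.91 with LIF and 0.82 with OSM, and Gab1, an adaptor that SHP2 binds, was higher by 0.59 with LIF. Map2k2, which encodes an ERK kinase, was higher by 0.73 with OSM. Grb2, the adaptor that brings SOS to activated receptors, was at 110 and 112 TPM in -LIF-ESCs, and fell by 0.58 with LIF and by 0.59 with OSM. Ptpn11 itself lay within the range of these genes, and 0 of the 16 passed between OSM-ESCs and LIF-ESCs, with 1 at an unadjusted p under 0.05 and 0 with a lower level at that threshold.

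**Figure D4:**
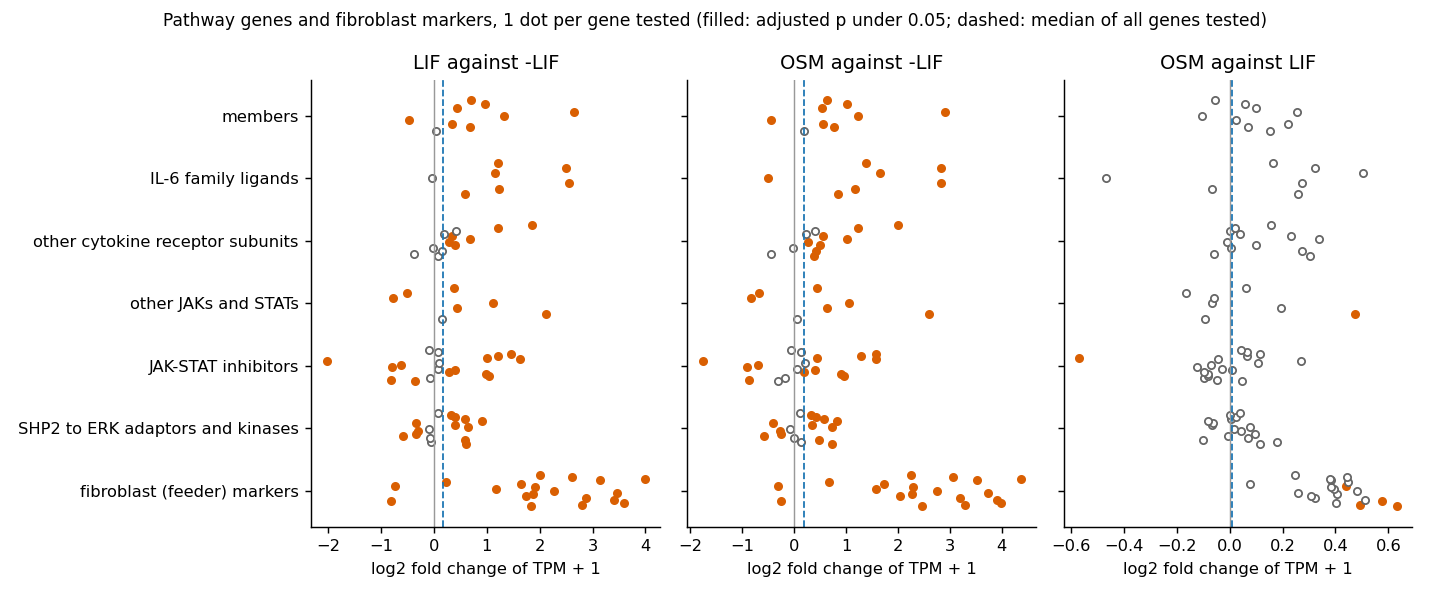
Log2 fold change of TPM + 1 (horizontal axis) of each gene tested in the 9 genes of the pathway core, the 5 lists of other pathway genes and the fibroblast markers, for the 3 comparisons; filled dots passed at an adjusted p under 0.05 and the dashed line is the median of all genes tested. Ligands and fibroblast markers lie mostly to the right in the first 2 panels, inhibitors spread to both sides, and in the third panel 2 pathway genes, Socs3 among them, and 4 fibroblast markers are filled.

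Most of the fibroblast genes listed moved in the same direction as Osmr. The list holds 20 markers of fibroblasts, a cell type that also expresses Osmr. Such cells served as feeders before the cultures were split, and whether they did so afterwards is not stated in the study's methods. Of the 20 markers, 19 were tested. With either cytokine 17 were higher and 2 lower than in -LIF-ESCs, with a median log2 fold change of 2.00 with LIF and 2.46 with OSM. Their summed level was 150 and 141 TPM in -LIF-ESCs, 408 and 402 TPM in LIF-ESCs and 571 and 565 TPM in OSM-ESCs. Osmr had this order of the groups, and so had Il6st, Jak1, Stat3 and Ptpn11. Col3a1, a fibrillar collagen gene, rose by 3.59 with LIF and 3.99 with OSM, Col1a2 by 2.80 and 3.29, Col5a2 by 3.40 and 3.91, and Prrx1, a mesenchymal transcription factor gene, by 3.98 and 4.36. These are differences of log2(TPM + 1). In mean TPM, Col3a1 was 35.9-fold higher with LIF and 48.1-fold with OSM, and Prrx1 167-fold and 221-fold. Fap was the only marker at 0 in both -LIF-ESC libraries. The 2 markers that were lower were Col5a1, at 43.6 and 42.3 TPM in -LIF-ESCs against 24.0 and 23.9 TPM in LIF-ESCs, and Mmp2, at 40.4 and 38.2 TPM against 23.0 and 23.1 TPM. Between OSM-ESCs and LIF-ESCs, 0.463% of all genes tested passed as higher and 0.129% as lower. In that comparison the median of the markers was 0.40, beside 0.26 for Osmr. Col1a1, Col1a2, Col5a1 and Mmp2 passed as higher in OSM-ESCs. With any 1 library left out their differences stayed between 0.43 and 0.65, in fits where 0 or 1 of all genes passed. The part of fibroblast RNA in the level of Osmr, or of any other of the 9 genes, was not tested.

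Finally, the genes with the most similar profiles were listed for Lifr, Osmr and Stat3, as the smallest root mean square difference between log2(TPM + 1) profiles over the 6 libraries after each was centred on its own mean, among 13479 genes. The libraries fall into groups, so these differences describe the 3 group levels more than 6 separate ones. Nearest to Osmr were Serpinb2, with a difference of 0.0523, then Samd9l, Abca1, Sh3kbp1 and Ifi27. Serpinb2 was listed at 0 in both -LIF-ESC libraries and at a mean of 5.09 ± 0.27 TPM (SD, n = 2) in LIF-ESCs and 6.88 ± 0.16 TPM in OSM-ESCs. Nearest to Lifr were Nol8, with a difference of 0.0207, Enpp4, Spred1, Dgkh and Tsc22d1, and nearest to Stat3 were Rhbdd2, with 0.0222, Dtx3, Syt4, Tnk2os and Hsd17b14. Among the other 8 genes of the pathway core, the profile of Stat3 was nearest to that of Il6st, with a difference of 0.136, followed by Lifr with 0.162 and Tyk2 with 0.165, and farthest from that of Osmr, with 0.847, and then Jak2, with 0.689.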

How the data were processed

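From poly-A RNA the authors made reads, mapped them to mm10 (HISAT2), summarised them by gene (featureCounts) and deposited 1 table in TPM. The submitters' processing notes also name Trimmomatic. The annotation, the strand setting and the step from counts to TPM are not given in the sources used here. The authors tested counts, which were not used here.

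Exon lengths came from GENCODE M21 (GRCm38), in which 99.4% of symbols were found once. TPM times exon length, divided by 1 step per library, gave whole reads within 0.02 in all 6 libraries for 91.8% of these genes, the 9 described among them. These reads give depths and counting limits, and replicates differed by more than sampling noise, the chi-square averaging 2.03 to 3.49 over genes. Counting limits cover counting error only.

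Genes at 1 TPM or more in at least 2 libraries entered limma (version 3.58.1, under R version 4.3.3) on the log2(TPM + 1) scale, with a mean-variance trend in eBayes, 1 fit for the 3 groups, 3 residual degrees of freedom (prior included, 5.33) and Benjamini-Hochberg adjustment. The fit was tested on simulated data. Plots were drawn with matplotlib 3.10.9, and tables were made with pandas 2.3.3 and numpy 2.4.6 under Python 3.11.15.

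The 9 genes and all lists were chosen with earlier results of these data known. Lists came from general knowledge. From each, at most 4 genes per comparison with the lowest adjusted p were named, with any gene that passed between OSM-ESCs and LIF-ESCs. Osm, Fap, Jak3, Nanog, Dppa3, Gm42809 and 1700084C06Rik were named after their values were seen. The motifs other than that of STAT dimers and the shares of receptor, Janus kinase and STAT transcripts were added after seeing the data. Promoters are RefSeq's (GRCm38.p6), and all 9 genes matched. Protein sequences were not analysed here, and some genes that the naming rule picks are not reported here.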

Additional observations from a re-analysis of the deposited data

How the results depend on the processing

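Under the alternatives, 393 values of single genes of the 9 kept direction and side of the threshold, 2 lost it, 2 newly passed and 5 reversed. These were Jak2 with OSM, without -LIF-ESC replicate 1 or OSM-ESC replicate 2, Osmr and Jak1 between OSM-ESCs and LIF-ESCs, which passed with voom on recovered reads, and reversals of values that had not passed. Il6ra with LIF turned to -0.047 after rescaling by the median ratio and to -0.022 with voom, and ran from -0.019 to 0.11 with each replicate left out, lowest without -LIF-ESC replicate 1. Jak2 between OSM-ESCs and LIF-ESCs ran from -0.10 to 0.15 with each replicate left out, with -0.10 without LIF-ESC replicate 2 and -0.00062 without OSM-ESC replicate 1. The cause of these changes was not tested. The number of the 9 that passed was 8 with LIF and 8 with OSM, and with the 2-fold rule 2 and 3, and between OSM-ESCs and LIF-ESCs it was 0, and 2 with voom or at an unadjusted p under 0.05. The replicate block gave 8, 8 and 0. Replicate numbers did not pair the samples (correlations of same-numbered deviations of -0.043, -0.023 and 0.027). Of other pathway genes 2 passed between OSM-ESCs and LIF-ESCs and of fibroblast markers 4, but 0 of each with eBayes without a trend, with only the 2 groups compared, with the replicate block and with each replicate left out (range 0 to 0), and 6 and 16 with voom. With only the 2 groups compared and with the replicate block 0 of all genes tested passed, so the losses there say little of these genes. Fits with a replicate left out keep 1 library in a group and could hardly make a call. Without a trend 12 of all genes passed, while Socs3 and Col1a1 each had an adjusted p of 0.076 in limma and did not. With voom 1442 of all 18431 genes tested that way passed between OSM-ESCs and LIF-ESCs. The alternatives for these lists and voom were chosen after seeing the data. With 2 replicates per group, precision is set by the shared spread, and Il6ra and Osmr in -LIF-ESCs rest on fewer than 120 reads per library.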
